A study of Mus musculus with 182 samples.

Results

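The small non-coding RNA rows of a single-cell RNA sequencing table of germinal centre B cells are described here, and they comprise 28 of its 17034 gene symbols. A row was taken where its symbol started with Snora, Snord or Mir and a digit and its value reached 1 in at least 5 of 182 cells, and Rpph1 and Rn45s were added by name. The pattern fitted 91 symbols, of which 26 passed: 11 Snora rows, 1 Snord row (Snord16a), 12 microRNA hairpins and 2 long host transcripts (Mir17hg and Mir22hg) whose names begin in the same way. The members were thus chosen by their own values in these cells, so that their detection and levels are a description. The mice were C57BL/6, immunised intraperitoneally with 100 μg NP(23)-KLH, a hapten on a carrier protein, in 50% alum with 1 μg LPS, and their spleens were collected at day 13. After depletion of T cells, CD11c+ cells and IgD+ cells, germinal centre B cells (B220+, Fas high, GL7 high, and NP+ in the sample labels) were sorted, captured on a Fluidigm C1 chip and made into 1 library each with SMARTer and Nextera XT chemistry, read as paired ends of 75 bases. All cells form 1 group, the labels name no animal or age, and no control exists, so no p-value was computed over cells.

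Small nucleolar RNAs (snoRNAs) guide the chemical modification of other RNAs, mostly ribosomal RNA. Box H/ACA members (Snora) direct pseudouridylation with the enzyme dyskerin, and box C/D members (Snord) direct ribose methylation with fibrillarin. Most mammalian snoRNAs are cut out of introns of host genes, many of which encode ribosomal proteins or translation factors. MicroRNAs are cut from hairpins by Drosha and Dicer and lower the output of mRNAs that pair with their seed, bases 2 to 8. Rpph1 is the RNA of RNase P, which trims tRNA precursors, and Rn45s is the precursor of the large ribosomal RNAs. SMARTer chemistry primes on poly(A) tails, which mature snoRNAs and microRNAs do not carry.

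The sequence that recurs most in the results is that of Mir682, a 96-base row at chr13:75645046-75645141 on the plus strand (GRCm38, the mm10 build), which lies inside the processed pseudogene Gm4149. It is shown beside the stretch of the coding sequence of Rpl37a, a protein of the large ribosomal subunit, with the base that differs in capitals. That difference is C48T, with the base of Mir682 first and positions counted from 1 at its 5′ end, and the other 95 bases are identical.
Mir682: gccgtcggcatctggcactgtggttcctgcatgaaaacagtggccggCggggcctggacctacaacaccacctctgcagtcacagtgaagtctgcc
Rpl37a: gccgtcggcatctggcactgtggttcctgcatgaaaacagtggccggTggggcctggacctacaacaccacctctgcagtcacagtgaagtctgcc

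RefSeq (GRCm38.p6) gave 12 mature microRNAs for the hairpin members, and these had 12 different seeds, none of them shared. The 4 below are among those of rows whose hairpin shares all or most of its bases with an mRNA, and the seed is in capitals.
mmu-miR-682: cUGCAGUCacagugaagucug
mmu-miR-686: aUUGCUUCccagacggugaaga
mmu-miR-703: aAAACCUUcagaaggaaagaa
mmu-miR-8114: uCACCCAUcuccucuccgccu

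The 3 snoRNAs below are the one with the strongest relation to a host gene (Snora70), one of the 3 found in the most cells (Snora30), and the single box C/D member (Snord16a). Capitals mark the ACA box 3 bases before the 3′ end of a Snora row and the D box CTGA near the 3′ end of Snord16a, as found on the annotated strand of the GENCODE M21 sequence.
Snora70: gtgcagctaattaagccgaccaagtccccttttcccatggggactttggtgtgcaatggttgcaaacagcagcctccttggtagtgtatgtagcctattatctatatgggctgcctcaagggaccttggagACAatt
Snora30: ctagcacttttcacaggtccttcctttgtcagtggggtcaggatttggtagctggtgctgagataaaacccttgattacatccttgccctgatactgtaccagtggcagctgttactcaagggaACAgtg
Snord16a: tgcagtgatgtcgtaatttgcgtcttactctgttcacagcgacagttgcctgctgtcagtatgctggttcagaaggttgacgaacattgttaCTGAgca
The ACA was found in 9 of 11 Snora members, against 18.3% of 1507 snoRNA genes of the annotation, which include box C/D genes. The hinge letters ANANNA in the middle of the row were found in 9 of the 11, against 81.8%. The letters CTGA stood in the last 20 bases of 35.4% of the 1507.

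The cells carried B cell transcripts. Cd79b reached 1 in 98.9% and Ms4a1 in 96.7% of cells, and the germinal centre genes Bcl6 and Mef2b did so in 58.2% and 75.8%. Of the 6 listed B cell genes, 5 reached 1 in over 50% of cells, and the lowest, Pax5, did so in 33.5%. Of the 6 listed germinal centre genes, 3 reached 1 in over 50% of cells, and the lowest share was 45.1%. Of 6 listed T cell genes 2 were in the table, Cd3d and Cd4, and each reached 1 in 0 of 182 cells. The upper limit was 1.65% by 3 counts in 182 and 2.01% by the exact Clopper-Pearson interval. Of 6 myeloid genes, 5 reached 1 in under 5% of cells. The values are normalized and not on a log scale, and the read depth behind them is unknown. They split the columns into set 1 (cells 1 to 96) and set 2 (cells 97 to 182, 86 cells), which share no scale. Each row has a lowest value in each set, its floor, which at least 1 cell holds by definition. It is read here as the value of cells without a signal. For Rn45s it is only the value of the lowest cell, 1289.6 in set 1 and 528 in set 2. The floor was 0 for 17 of the 24 hairpin and snoRNA members in set 1 and for 3 of the 24 in set 2. Rows above their floors numbered a median of 2666 per cell in set 1 and 2188.5 in set 2. What the sets correspond to in the experiment is not given in the sources used here.

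Most of the small RNA rows were found in few cells. Over the 24 hairpin and snoRNA members the median row reached 1 in 8 cells, against 22 cells over the 9405 rows that pass the same minimum of 5 cells, and 22 of the 24 were found in fewer than 20% of cells, as were 6513 of the 9405 rows. Mir682 was the exception among the hairpins, with 170 cells at 1 or more, or 93.4% (exact Clopper-Pearson 95% interval 88.8 to 96.5%, which covers counting error over cells only). In set 2 its floor was 4.06, so every cell of that set counted, and 84 cells of set 1 and 55 of set 2 lay above the floor. Mir703 followed with 39 cells, 21.4% (15.7 to 28.1%). Among the snoRNAs Snora81 reached 29 cells, Snora68 26 and Snora30 24, and Mir6516, a hairpin in the non-coding host gene Snhg20, reached 22. Rn45s reached 1 in all 182 cells and Rpph1 in 105, or 57.7% (50.2 to 65.0%).

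The minimum of 5 cells cut through a crowded range. Exactly 5 cells were reached by 7 members, with highest values between 75.5 (Mir22hg) and 92271 (Mir5136). Another 6 rows were 1 cell short, with highest values between 613 (Mir1893) and 332128 (Snord35a). Of the 65 pattern rows under the rule, 33 reached 1 in a single cell and 6 in none.

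Most of the small RNA rows reached a high value in some cell, but not in every cell where they were found. Snora23, Mir8112 and Snora65, for instance, each had a cell with a value between 1 and 5. The highest value of a row had a median of 23525 over the 24 hairpin and snoRNA members, against 644 over the 9405 rows, and it reached 10000 in 17 of the 24 members, against 225 of the 9405 rows. In 10 of the 24, a single cell held more than 50% of the sum of the row, against 2830 of the 9405 rows. Snora81, for example, lay between 5.00 and 1353 in its 22 cells of set 1, with a median of 93.9. In its 7 cells of set 2 it lay between 73.6 and 39899, with a median of 451, and the highest of these cells held 80.7% of the row's sum.

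**Figure D1:**
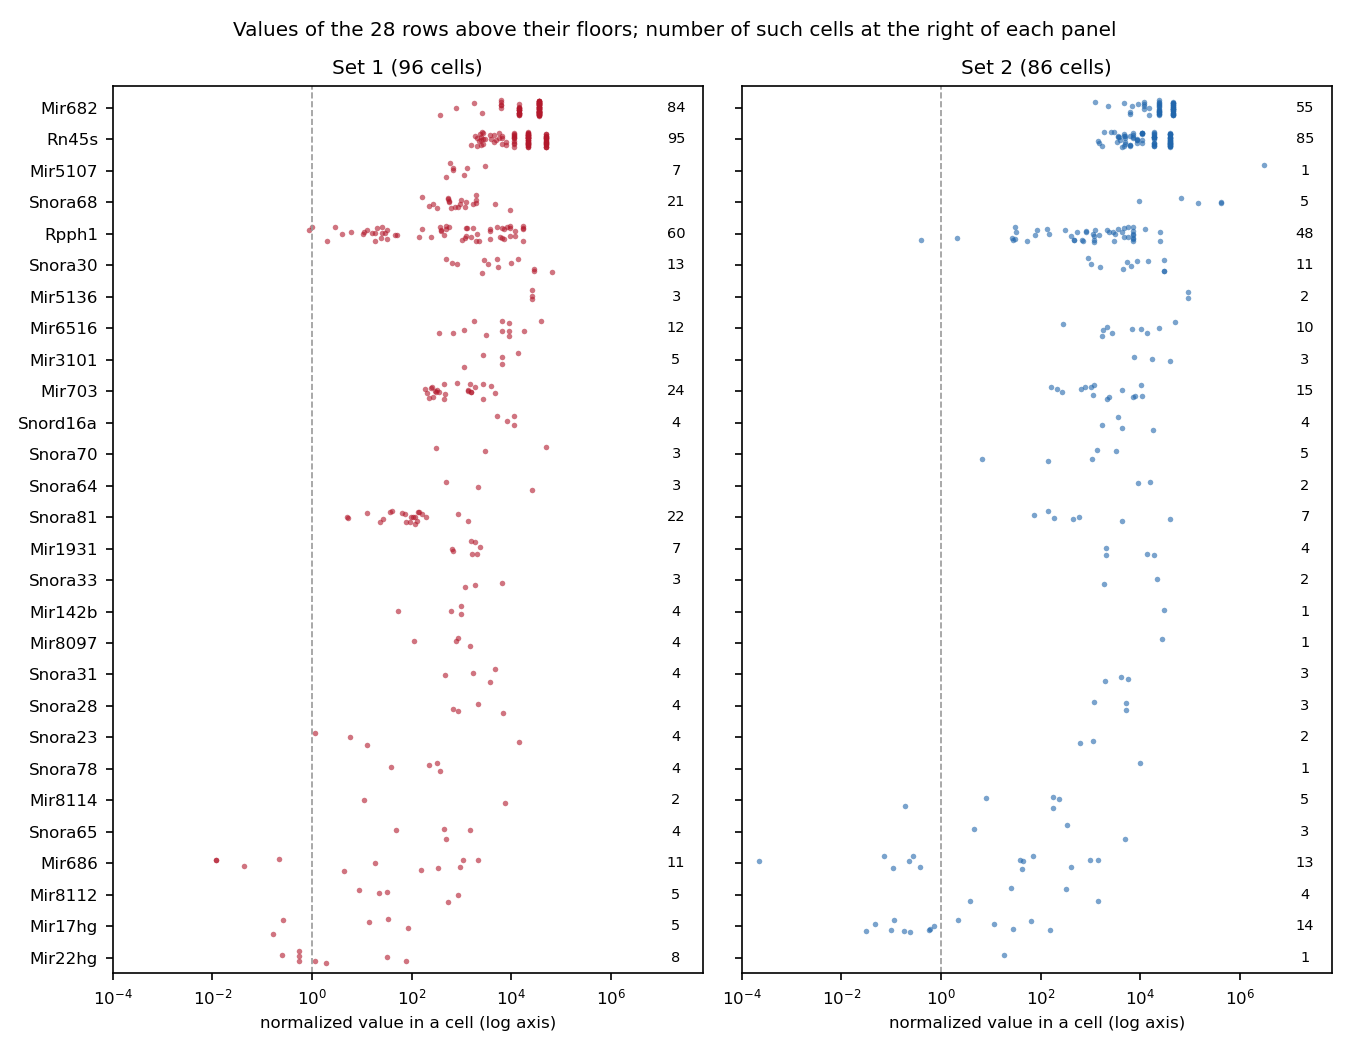
Values of the 28 rows in each cell where they lie above their floor, on a log axis, with set 1 on the left and set 2 on the right. Each point is a cell, vertical scatter within a row only separates points, rows run from the highest mean down, the dashed line marks a value of 1, and the numbers count the cells shown; Mir682 has 84 cells in set 1 and 55 in set 2, whereas Mir5107 has a single point at 3059103 in set 2.

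Mir682 and Rn45s had the highest and second highest mean of all rows in the table, at 21692 and 20983. Mir682 stood at its own top value, 35649, in 57 of 96 cells of set 1, and at 44523 in 25 of 86 cells of set 2. Its median was 35649 in set 1 and 14643 in set 2. Rn45s ranged from 1289.6 to 49289 in set 1 with a median of 21956, and from 528 to 39048 in set 2 with a median of 18758. Many cells thus shared exactly equal values of these rows, and the origin of these ties was not tested.

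A member was the row with the highest value of its cell in 143 of 182 cells, 85 of 96 in set 1 and 58 of 86 in set 2. Mir682 held that place in 74 cells (55 in set 1 and 19 in set 2), Rn45s in 51 (24 and 27) and other members in 18 (6 and 12). Actb, which encodes cytoskeletal actin, held it in 19 cells. The 28 rows together took a median of 14.6% of the summed values of a cell, 16.5% in set 1 and 13.0% in set 2. A cell had a median of 4 members at 1 or more, with a range of 2 to 10. Cells with more rows above their floors also had more of the 24 small rows above theirs, with a Spearman's rho of 0.52 in set 1 (96 cells) and 0.43 in set 2 (86 cells). Both counts come from the same libraries, so this is a description.

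The largest single value of the table belonged to Mir5107, a microRNA gene at chr18:60812076-60812163 (GRCm38, plus strand) within Cd74. Its value was 3059103 in cell 122 of set 2, where it made up most of a summed signal of 3443763, and no other cell of set 2 lay above the floor. In set 1 it lay above the floor in 7 cells, between 478 and 2966. Cell 122 held 99.7% of the sum of the row, and without it the mean fell to 43.1, against 16851 with it. Snora68 had the next highest single value among the members. It reached 406111 in both cell 104 and cell 160, 143875 in cell 140, 65871 in cell 168 and 9352 in cell 172, all in set 2, whereas its 21 cells of set 1 lay between 158 and 9390. In cells 122, 160 and 104 the small rows other than Mir682 took 88.8%, 56.3% and 54.4% of the summed values, against a median of 0.604% over all cells. Cell 160 was among the cells with few rows, with 1112 rows above the floor, whereas cell 104 had 2315 and cell 122 had 2020.

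Mir5136 stood at 92271 in 2 cells of set 2 and at 25291 in 3 cells of set 1, and at its floor in the rest. Snora30 reached 63874 in 1 cell of set 1, and 29430 in 3 cells of set 2. In set 1 its 13 cells had a lowest value of 489 and a median of 5078, and in set 2 its 11 cells had a lowest value of 885 and a median of 6617. The ranges of Snora30 in the 2 sets overlap.

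Length separated these rows from most others in the table. The 24 hairpin and snoRNA members are 76 to 184 bases long in the annotation, against reads of 75 bases. An exonic length could be assigned to 94.8% of symbols. Among the 31 rows of at most 200 bases that reached 1 in at least 5 cells, 24 of them members, the highest value reached 10000 in 64.5% and its median was 18645. The same share was 9.09% for rows of over 200 and up to 500 bases, 2.03% for over 2000 and up to 5000 bases and 0.936% for rows above 5000 bases, where the median of the highest value was 515. The other 7 short rows were Gm12238, Gm12338, Gm1943, Snhg9, the minor spliceosome RNAs Rnu11 and Rnu12, and the vault RNA Vaultrc5. Of the 2 members that are long transcripts, Mir17hg had a highest value of 156 and Mir22hg of 75.5. The unit that preceded normalization is not given in the sources used here, and the part of length in these values was not tested.

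**Figure D2:**
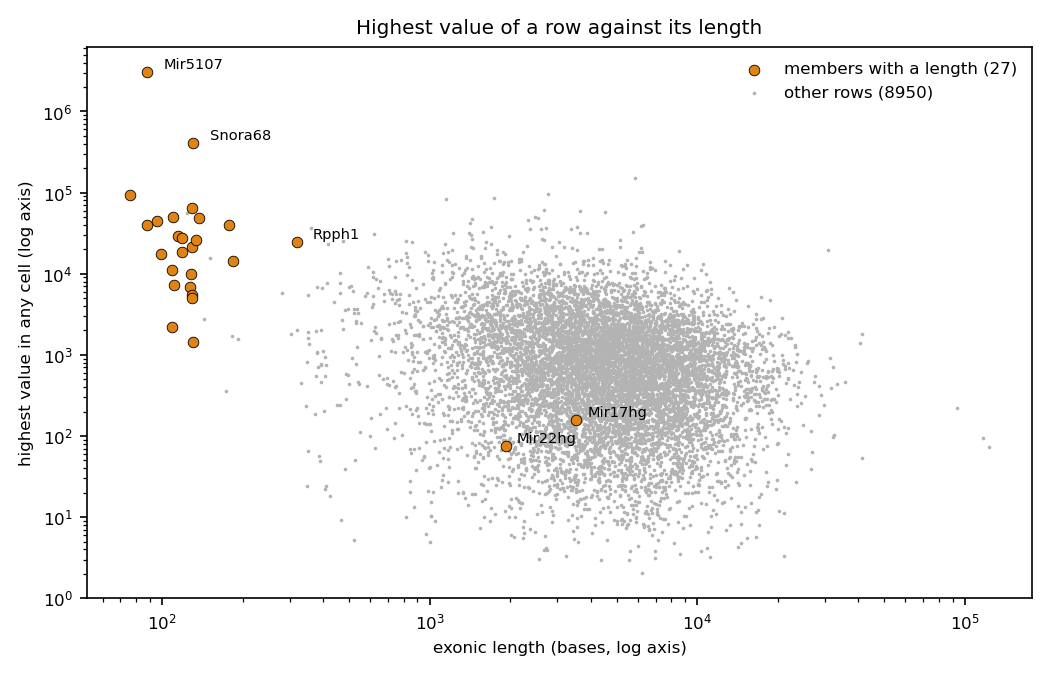
Highest value of each row in any cell against its exonic length, both on log axes, for rows that reach 1 in at least 5 cells and have a length. Orange points are members and grey points other rows; the 24 hairpin and snoRNA members lie at 76 to 184 bases, and the 2 long host transcripts Mir17hg and Mir22hg lie at 156 and 75.5.

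Several hairpin rows share all or most of their bases with an mRNA. Reads from the mRNA and from the hairpin cannot be told apart where they cover identical bases only. Mir686 (chr14:54616677-54616785) is identical over all 109 bases to the coding sequence of Psmb5, a catalytic subunit of the proteasome, in whose body it lies. Mir8097 (chr15:36240046-36240164) lies in the 3′ UTR of Rnf19a, a ubiquitin ligase, over all 119 bases. Mir703 shares 107 of 109 bases with the 3′ UTR of Eef1a1, a translation elongation factor, though it is annotated on chromosome 5 and Eef1a1 on chromosome 9. Mir8112 shares 125 of 131 bases with the 5′ UTR of Krcc1, and Mir8114 shares 93 of 111 with that of Glul, the glutamine synthetase. For Mir682, 16 other annotated genes matched at 90% or more of its bases, 8 of them pseudogenes and 7 small RNA genes. Rpph1 shares 233 of 319 bases with the 5′ UTR of Ccnb1ip1, which was not analysed here.

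Mir682 and Rpl37a moved together from cell to cell. Their Spearman's rho was 0.66 over all 182 cells, 0.56 in set 1 (96 cells) and 0.74 in set 2 (86 cells), and Rpl37a was the row most like Mir682 of 9404 in each case. The next rows were Rps9, a ribosomal protein gene, at 0.39 and Gm13826 at 0.36. Pearson's r of log2(value + 1) was 0.72, and 0.71 when the 2 cells most distant from the Mir682 median were left out. In set 1, Rpl37a lay above its floor in 83 of the 84 cells with a Mir682 signal, against 4 of the 12 cells without one. In set 2 the counts were 51 of 55 cells with a signal and 5 of 31 cells without one. The cells with a Mir682 signal also had more rows above their floors, a median of 2708.5 against 2309.5 in set 1 and 2312 against 1938 in set 2.

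**Figure D3:**
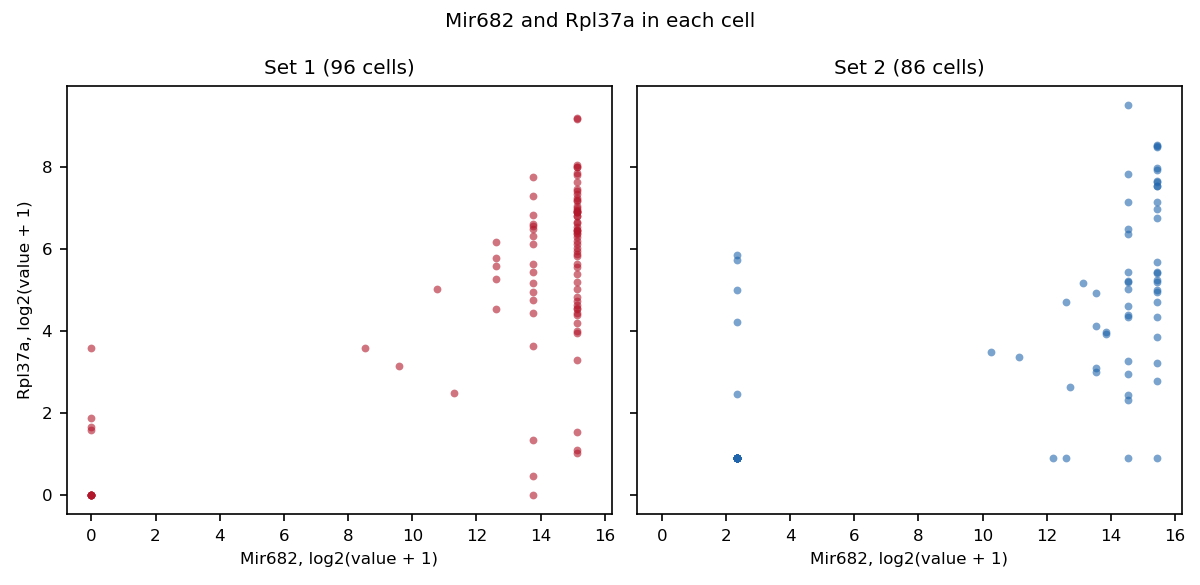
Mir682 on the horizontal axis and Rpl37a on the vertical axis, both as log2(value + 1), with set 1 on the left and set 2 on the right. Each point is a cell, columns of points are cells that share a value of Mir682, and the lower left group holds the cells in which Mir682 is at its floor, where Rpl37a is above its own floor in 4 of 12 cells of set 1 and 5 of 31 of set 2.

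Mir686 and Psmb5 showed a similar relation. Mir686 lay above its floor in 11 cells of set 1 and 13 of set 2, and Psmb5 lay above its floor in all 24 of them, against 48 of the other 158 cells, or 30.4%. Mir686 reached 1 in only 14 cells, 7 in each set. Its lowest value above the floor was 0.01181291 in set 1, where the floor was 0.01181059, and 0.000225 in set 2, where it was 0. The highest value of Psmb5, 1075, fell in cell 133, where Mir686 stood at 0.275. The rho of the pair was 0.47 in set 1 and 0.64 in set 2, where Psmb5 was the row most like Mir686. Rnf19a lay above its floor in all 5 cells with Mir8097 and in 19 of the 177 without it, with a rho of 0.48 in set 1 and 0.51 in set 2. Mir8097 lay above its floor in 4 cells of set 1 and 1 of set 2, so the rho in set 2 rests on a single cell. The highest value of Rnf19a, 381, fell in cell 148, the cell with the highest Mir8097 value of 27644.

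Glul lay above its floor in all 7 cells with Mir8114, against 22.3% of the other 175, with a rho of 0.30 in set 1 and 0.49 in set 2. Krcc1 did so in all 9 cells with Mir8112, against 53.8% of the other 173, with a rho of 0.19 and 0.28. Eef1a1 lay above its floor in nearly every cell, so that its level is the measure that can differ. Its median was 580.1 in the 24 cells of set 1 with Mir703, against 101 in the 72 without, and 275 in the 15 cells of set 2 with Mir703, against 111 in the 71 without. The rho of Mir703 with Eef1a1 was 0.38 in set 1 and 0.23 in set 2.

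Hosts are genes whose body contains a member, and 16 pairs of member and host could be compared, with 15 members and 15 hosts. Over all 182 cells 5 of the 16 pairs had a rho of at least 0.3, but so did 40.6% of pairs between the same members and any other row, so that count says little about hosts. Within set 1 the count was 5 of 16, against 1.18% of such pairs. Within set 2 it was 4 of 16, against 2.49%. With all values at a floor put at 0, an alternative added after the data had been seen, it was 4 of 16, against 0.192%. The median rho over the 16 pairs was 0.12 in set 1 and 0.18 in set 2. The 4 pairs at 0.3 or more in both sets were Snora70 with Rpl10, Mir3101 with Rab4b, Mir686 with Psmb5 and Mir8097 with Rnf19a. The last 2 of these share exon sequence of coding transcripts as described above. Snora70 and Mir3101 lie wholly in exons of host transcripts not annotated as coding. In set 2 the pair of Mir8097 rests on 1 cell and that of Mir3101 on 3. In set 1 the pair of Snora70 rests on 3 cells, that of Mir8097 on 4 and that of Mir3101 on 5.

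**Figure D4:**
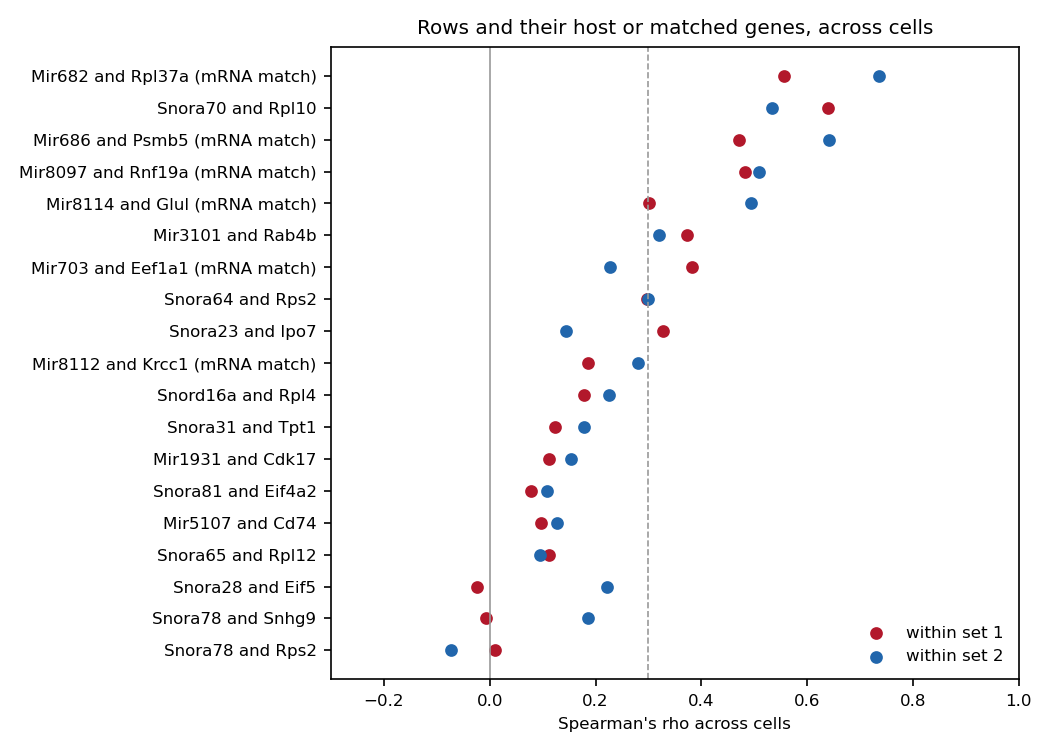
Spearman's rho across cells between a member and its host gene, or the gene whose mRNA shares all or most of its bases (marked as mRNA match, with Psmb5 and Rnf19a also hosts), for the pairs described in the text, within set 1 in red and set 2 in blue. The dashed line marks 0.3; Mir682 with Rpl37a lies at 0.56 and 0.74, and Mir5107 with Cd74 at 0.097 and 0.127.

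Mir5107 and its host did not rank near each other. Cd74, which encodes the invariant chain of MHC class II molecules, lay above its floor in all 8 cells with Mir5107 and in 171 of the 174 without it. The rho of the pair was 0.097 in set 1 and 0.127 in set 2, and Cd74 ranked 1517 and 1290 of 9404 rows by likeness to Mir5107. In set 2 that rho rests on cell 122 alone. In cell 122, Cd74 stood at 6595, above 71 of the 86 cells of its set, whose median was 1980.0. In the 7 cells of set 1 with Mir5107, Cd74 lay between 1640 and 6764, on both sides of the set median of 2115. The hairpin overlaps exons of Cd74 by 12 of its 88 bases. The rows most like Mir5107 over all cells were Olfr134, Stk32b and Slc44a4, with a rho of 0.85 each, but with floors put at 0 these came to 0.13, 0.23 and 0.13.

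Mir3101 gave a different picture. It lies within Rab4b, a small GTPase of endosome recycling, in sequence that is exonic only in transcripts not annotated as coding (chr7:27176006-27176093, minus strand). Rab4b lay above its floor in all 8 cells with Mir3101, against 42.5% of the other 174, with a median of 757 against 0.0738. Its value in these cells ran from 66.8 to 1730, and in cell 71 it was the highest of set 1. The highest Rab4b value of the table, 12984, fell in a cell of set 2 without Mir3101. The rho was 0.37 in set 1 and 0.32 in set 2. Mir1931, in an intron of the kinase gene Cdk17, had Cdk17 above its floor in 4 of its 11 cells, against 26 of the other 171, with a rho of 0.11 and 0.15. The cells with Mir1931 had a median of 3089 rows above their floors, against 2394 in the others.

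All 12 snoRNA members lie within annotated genes and outside the exons of their coding transcripts. Some lie wholly in sequence that is exonic only in transcripts not annotated as coding, as Mir3101 does. Among them are Snora28, Snora33, Snora64, Snora65, Snora70, Snora81 and Snord16a. Snora70, in the ribosomal protein gene Rpl10 on the X chromosome, followed its host most closely, with a rho of 0.64 in set 1 and 0.53 in set 2. These rest on 3 cells of set 1 and 5 of set 2 with Snora70 above its floor. Rpl10 was itself rarely found in this table, above its floor in 7 of the 8 cells with Snora70 and 10 of the 174 without it. It reached 1 in only 8 of the 182 cells. In cells 70, 24, 172 and 114, which had Snora70, Rpl10 stood at 0.521, 0.149, 0.042 and 0.0412, above its floor but under 1. Its highest value, 85.5, fell in cell 15, where Snora70 had its highest, 48823. The 8 cells with Snora70 had a median of 3330.5 rows above their floors, against 2397 in the others.

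Snora64 lies in Rps2, a protein of the small ribosomal subunit, and Rps2 lay above its floor in all 5 cells with Snora64, with values of 43.9 to 89.2, against 44.1% of the other 177. The rho was 0.298 in set 1 and 0.299 in set 2, just under 0.3. Snora78 lies on the opposite strand of Rps2, within Snhg9, and had a rho near 0 with Rps2 (0.0094 and -0.0735) and of -0.0073 and 0.185 with Snhg9. Snora78 lay above its floor in 4 cells of set 1 and 1 of set 2. Snord16a lies in Rpl4, a protein of the large subunit. Rpl4 was found in nearly all cells, and its median was 1347 in the 4 cells of set 1 with Snord16a, against 289 in the other 92, and 696 in the 4 cells of set 2, against 146 in the other 82. The rho of this pair was 0.18 in set 1 and 0.22 in set 2.

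Snora81, the snoRNA found in the most cells, was not close to its host. It lies in Eif4a2, an RNA helicase of translation initiation. In set 1, Eif4a2 lay above its floor in 77.3% of the 22 cells with Snora81 and 77.0% of the 74 without. In set 2 the shares were 57.1% of 7 and 36.7% of 79, and the rho was 0.0774 in set 1 and 0.109 in set 2.

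The remaining pairs rested on 5 to 7 cells each. Snora31 and Tpt1, the translationally controlled tumour protein gene, had a rho of 0.12 in set 1 and 0.18 in set 2. Snora28 and the initiation factor gene Eif5 had -0.0243 and 0.221, and Snora65 and the large subunit gene Rpl12 had 0.112 and 0.095. Snora23 and Ipo7, an importin, had 0.33 in set 1 and 0.14 in set 2, and in cell 16, where Snora23 reached 14192, Ipo7 was at its floor. Snora33 lies in Rps12, which reached 1 in 1 cell and was not ranked.

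Rn45s, a product of RNA polymerase I, and Rpph1, a product of RNA polymerase III, followed each other, with a rho of 0.43 in set 1 and 0.43 in set 2. The row most like both was Lars2, the mitochondrial leucyl-tRNA synthetase gene, at 0.68 with Rn45s (0.70 in set 1, 0.66 in set 2) and 0.50 with Rpph1 (0.51 in set 1, 0.51 in set 2). Next came Rpsa, a small subunit protein gene, at 0.66 with Rn45s and 0.43 with Rpph1. The third was Rpl13a at 0.54 for Rn45s, and for Rpph1 it was Mki67, a gene of dividing cells, at 0.52 in set 1 and 0.24 in set 2. Rn45s was lower where Mir682 was higher, with a rho of -0.49 in set 1 and -0.44 in set 2. For Rpph1 and Mir682 the rho was -0.11 in set 1 and -0.44 in set 2. Rpph1 ranged widely, from its floor up to 16687 in set 1 and up to 24280 in set 2, with medians of 19.1 and 30.6 over all cells of a set.

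Among themselves the 28 rows showed little common movement within a set. The median rho over their 378 pairs was 0.49 across all 182 cells, against 0.044 over all row pairs, but it was -0.0374 within set 1 and -0.0246 within set 2, against 0.0026 and 0.0045 over all row pairs. Snora68 and Mir6516, for example, had a rho of 0.50 over all cells, 0.16 in set 1 and 0.0757 in set 2. In no cell did a pair of small members share an equal value above the floor.

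Between the sets, 1 member was called higher in set 1 by a mean log2(value + 1) difference of at least 1, against 0.447% of all rows, and 0 were called higher in set 2, against 0.0106%. The member was Mir682, with a mean log2 value of 12.64 in set 1 and 10.14 in set 2, a difference of 2.50, which was also the highest difference of any of the 9405 rows. Its share of cells above the floor was 87.5% in set 1 and 64.0% in set 2. By that share, 1 member was higher in set 1 by at least 20 percentage points, again Mir682, against 10.5% of all rows, and 0 were higher in set 2, against 0.457%. Snora68 came next on the log2 scale, at 2.14 in set 1 and 1.23 in set 2, a difference of 0.92. With floors put at 0 it differed by 1.17 and passed the same limit, against 1.02% of all rows. The median difference over the 28 rows was 0.07, against 0.06 over all rows. In the share above the floor the median difference was 0.836 percentage points for the members and 5.72 for all rows. Cells of set 1 had more rows above their floors in general, as given above, and the part of this in the differences was not tested.

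Of the 24 hairpin and snoRNA members, 20 lay above the floor in a larger share of cells of set 1 and 4 in a larger share of set 2. The whole table leaned the same way, with 6858 of 9405 rows above the floor in a larger share of set 1. Of the same 24 members, 7 had their highest value in set 1 and 17 in set 2, against 5095 of the 9405 rows with their highest value in set 2. In set 1, 0 of them lay above the floor in exactly 1 cell, against 1.32% of all rows. In set 2, 4 did, against 1.46% of all rows: Mir5107, Mir142b, Mir8097 and Snora78. The 24 members were found in fewer cells than most rows, with a median of 8 against 22, and the part of this in these counts was not tested. Mir142b had 53.1 to 989 in 4 cells of set 1 and 29373 in its cell of set 2. The sets share no scale, so the heights in them cannot be told apart from their normalization. Among the long transcripts, Mir17hg, host of the miR-17 to miR-92 cluster, lay above its floor in 5.21% of cells in set 1 and 16.3% in set 2. Mir22hg did so in 8.33% in set 1 and 1.16% in set 2. Many of these values were under 1. At 1 or more the shares were 3.13% in set 1 and 5.81% in set 2 for Mir17hg, and 4.17% and 1.16% for Mir22hg.

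**Figure D5:**
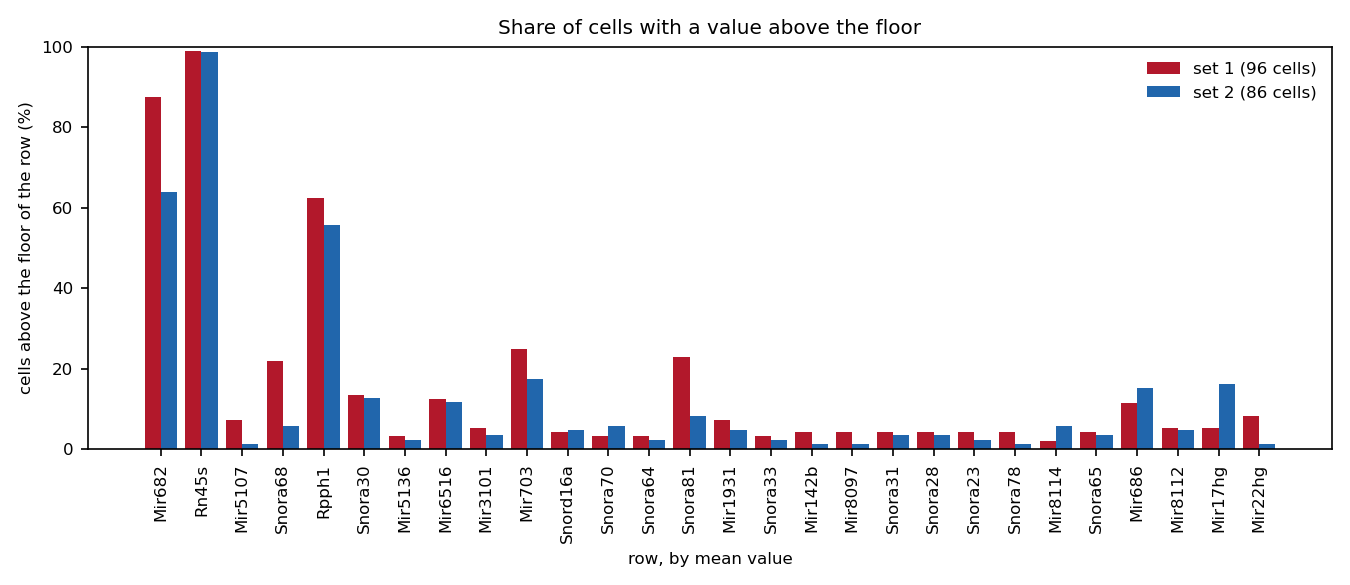
Share of cells with a value above the floor of the row, for the 28 rows in order of mean value, with set 1 (96 cells) left of set 2 (86 cells) in each pair of bars. Mir682 stands at 87.5% in set 1 and 64.0% in set 2, and Rn45s at 99.0% and 98.8%, which is every cell but the lowest of each set.

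The genes of proteins that work with these RNAs were found in unlike shares of cells. The median gene reached 1 in 33.2% of cells for the box C/D list, 26.4% for box H/ACA and 15.7% for RNA polymerase I. Over the 9405 rows with at least 5 cells, a minimum not set for these lists, the median row reached 1 in 22 of 182 cells. Of 5 listed proteins of box C/D particles, 4 were in the table, and the scaffold protein gene Nop56 reached 1 in 54.9% of cells, whereas Fbl, which encodes fibrillarin, did so in 4 cells. Of the 5 box H/ACA genes none reached 1 in more than 50% of cells, and the assembly factor gene Naf1 did so in 4.95%. For the 11 RNase P protein genes the median was 9.89% of cells, with Rpp25, Rpp38 and Rpp40 under 5%. Among 14 genes of RNA polymerase I and its factors, Ubtf reached 1 in 54.9% and Taf1d in 61.5% of cells. For the 10 microRNA processing genes that could be looked up, the median was 6.87% of cells, and Prkra had the lowest, 0.549%. Among the 13 non-coding host genes in the table, Gas5 reached 1 in 60.4% and Snhg5 in 57.7% of cells. In none of these lists did a gene differ between the sets by 1 or more on the log2 scale. Of the 9405 rows, 0.447% were higher in set 1 by this limit and 0.0106% in set 2. The absence of calls thus says little about these lists.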

How the data were processed

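The authors deposited 1 table of a normalized signal per gene and cell, not on a log scale, with 17035 rows and 182 columns. Per the submitters' processing notes, TopHat2 2.0, Cufflinks 2.2, Cuffdiff and the mm10 build were used; how reads over overlapping rows were counted, the annotation and the scaling are not stated there. Read counts were not used, so depth is unknown, and no test for counts was run. The members and lists were chosen with earlier results of these data known. Set 1 is cells 1 to 96 and set 2 is cells 97 to 182, by the cell number in the column names. Detection is a value of at least 1. Intervals are exact Clopper-Pearson 95% intervals. Set differences are means of log2(value + 1), called at 1; no p-value was computed, since cells of 1 group are not replicates. Spearman's rho was taken across cells and called at 0.3. Hosts are genes of GENCODE M21 (GRCm38) whose body contains the member. mRNA matches come from BLAST 2.17.0 at an e-value of 1e-5, at 60% or more of a member's bases; Eef1a1, Krcc1 and Glul are named for such matches, and near copies are those at 90% or more. Rn45s was not in that annotation. Members named with values were those with the highest means, single values, cell counts, set differences and host relations, and for 4 rows the 3 most alike. Python 3.11.15 with numpy 2.4.6, pandas 2.3.3 and scipy 1.17.1 was used, and the calls were tested on simulated data. The host gene of 1 member is not reported here, though its pair is in the counts.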

Additional observations from a re-analysis of the deposited data

How the results depend on the processing

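The number of members was 28 and became 10 when a row had to reach 1 in at least 10 cells; a value of at least 5 gave 27 and of at least 0.1 gave 34. The single member higher in set 1 was called with pseudocounts of 0.1 and 10 too; 0 were called by the share of cells at 1 or more and 2 with floors put at 0, an alternative added after seeing the data. The 5 host pairs at a rho of 0.3 over all cells became 0 when both rows had to reach 1 in at least 20 cells, which left 2 pairs. The median rho between members, 0.49, became 0.15 over the 8 members in at least 20 cells and lay below 0 within either set (-0.0374 and -0.0246). The members' median share of the summed values, 14.6%, was 8.42% without Mir682 and 9.43% without Rn45s and Rpph1. No paired analysis was possible because all cells form 1 group. Depth is unknown, so a row at its floor cannot be told apart from a row that was not sampled.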

Other observations

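Some other non-coding rows, most of them outside the symbol pattern, are given here by their values. Rmrp, the RNA of RNase MRP, reached 1 in 5 cells of set 1 and 12 of set 2, with a highest value of 5766. Vaultrc5, a vault RNA of 143 bases, reached 1 in 39 cells of set 1 and 26 of set 2, with a highest value of 2770. Rnu12, a minor spliceosome RNA, reached 1 in 7 cells of each set, with a highest value of 15643. Snord35a, found in 4 cells and therefore 1 short of the minimum, had a highest value of 332128 and a second highest of 10265.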
